A study of Mus musculus with 12 samples.

Results

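Scavenger receptors and C-type lectins are surface receptors with which macrophages bind modified lipoproteins, microbial sugars and debris of dying cells. Of 10 genes of this kind (Cd36, Msr1, Marco, Cd163, Clec7a, Clec4e, Clec4n, Clec5a, Clec4a2 and the galectin Lgals3), 6 were found by gene name among the 545 endogenous genes of the deposited count table, and none of the other 4 by RefSeq accession. Clec7a, Clec4n, Clec4a2 and Lgals3 are therefore not analysed here. The 6 measured genes were the scavenger receptors Cd36, Msr1, Marco and Cd163 and the lectins Clec4e and Clec5a. The rule that chose them uses gene names and no measured value, although it was set with earlier results of these data known.

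The cells were microglia, the resident macrophages of the brain, isolated from the hippocampus of male Balbc mice aged 28 days by Percoll gradient and flow sorting. One group of 6 held control animals. The other 6 had undergone BDS (brief daily separation), a removal from the dam that lasted 15 min daily over postnatal days 1 to 21. The design text places every pup in a different litter, so the replicates are animals of separate litters. The labels name no transgene, mutation or drug in either group and do not say how controls were handled. Transcripts were counted on a NanoString nCounter immune panel, which counts a fluorescent barcode per transcript after 5 rounds of PCR, from 2 ng of RNA. Fewer cells of a type in a sort and less RNA per cell cannot be told apart in such bulk samples.

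As background, scavenger receptors such as Cd36, Msr1 and Marco take up oxidised lipids and particles. Cd163 binds haemoglobin bound to haptoglobin and marks macrophages at the borders of the brain rather than those within it. Clec5a and Clec4e lack a signalling motif of their own. Clec5a signals through the adaptor Tyrobp (DAP12) and Clec4e (Mincle), a receptor for mycobacterial glycolipid, through Fcer1g, and both lead to the kinase Syk.

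The 2 lectins lay at opposite ends of detection in these cells. For that reason the 250 bases before the annotated start of each are shown, 5′ to 3′ on the strand of the gene (RefSeq, GRCm38.p6). Capitals mark each match to the hexamer AGGAAG or its reverse complement CTTCCT, a sequence containing the core that ETS factors such as the myeloid factor PU.1 bind. The window of Clec5a is chr6:40585806-40586055 on the minus strand and that of Clec4e is chr6:123289872-123290121 on the minus strand.
Clec5a: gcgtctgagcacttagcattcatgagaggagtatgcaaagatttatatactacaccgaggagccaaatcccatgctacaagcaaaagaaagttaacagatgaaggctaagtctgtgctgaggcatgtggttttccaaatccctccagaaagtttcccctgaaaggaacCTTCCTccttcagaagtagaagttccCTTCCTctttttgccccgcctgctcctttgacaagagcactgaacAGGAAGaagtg
Clec4e: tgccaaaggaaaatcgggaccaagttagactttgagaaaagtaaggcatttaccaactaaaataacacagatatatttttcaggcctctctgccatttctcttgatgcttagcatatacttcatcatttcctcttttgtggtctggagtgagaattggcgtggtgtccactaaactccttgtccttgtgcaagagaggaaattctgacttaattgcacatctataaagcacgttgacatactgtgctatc
The Clec5a window held 3 matches, beginning 82, 56 and 11 bases before the start, and the Clec4e window held 0. The core itself, GGAA or its reverse complement TTCC, is shorter than the hexamer and was not marked. It occurs in the Clec4e window, and outside the capitals in the Clec5a window. Over 32851 annotated windows of 250 bases, 29.5% held at least 1 match. Of the 5 measured genes with an entry (Msr1 had none), Marco also held matches, 2 in number, and its transcript was not detected. Whether the hexamer bears on detection was not tested. A match is a string of letters and not a measured binding site.

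Only Clec5a was well above background in every sample. A gene was counted above background in a sample where its count exceeded the mean plus 2 SD of the 8 negative-control probes of that sample, a threshold of 15.3 to 21.8 counts. Clec5a passed in 12 of 12 samples and Cd36 in 9 of 12. Msr1, Marco, Cd163 and Clec4e passed in 0 of 12. Both Clec5a and Cd36 met the rule of at least 5 of 12 samples and entered the test, with 357 of 545 endogenous genes in all.

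**Figure D1:**
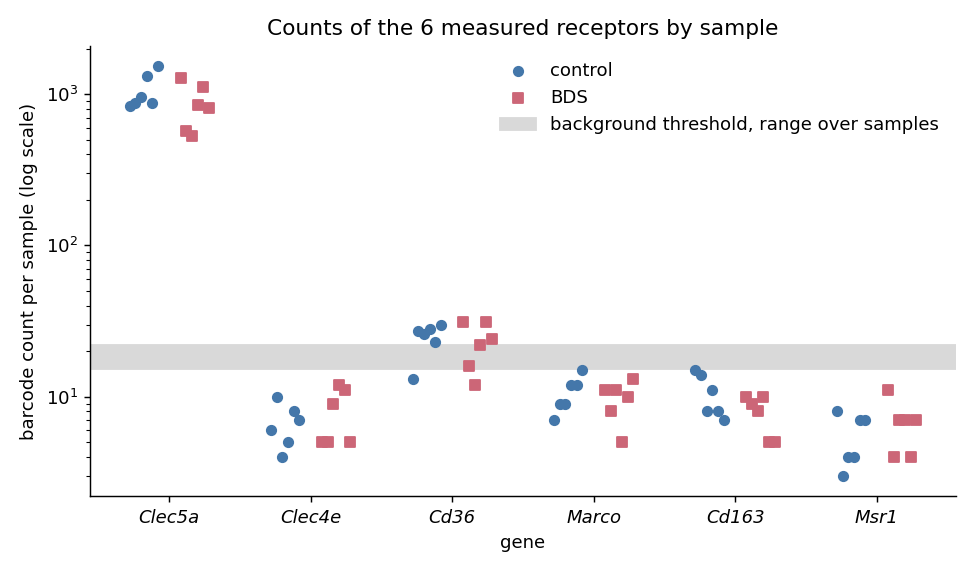
Barcode counts (log scale) of the 6 measured receptors in each of 6 control (circles) and 6 BDS (squares) samples, with the range of the background threshold over samples as a grey band. Clec5a lay at 531 to 1526 counts, Cd36 straddled the band at 12 to 31, and the other 4 genes stayed at 15 counts or fewer.

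Total counts were 893936 to 1409376 in controls and 641756 to 1171355 in BDS. Values were scaled by the geometric mean of 6 housekeeping genes named in the design text, and are called normalized counts below. The scaling factor ran from 0.847 to 1.42 in controls and from 0.590 to 1.24 in BDS, and was lowest in BDS 21 (0.590), BDS 25 (0.628) and BDS 55 (0.827). The mean of the negative controls was 8.25 to 11.4 counts in every sample, and division by a factor below 1 raises such a count. This touches every low-count value in the text. The panel's own shift was a median log2 fold change of -0.10 over the 357 tested genes, and of -0.01 with TMM scaling. Of these genes, 236 of 357 had log2 fold changes below 0, the share against which the counts of gene lists are to be read.

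The comparison of BDS with control asked whether early separation altered these receptors at this age. For Clec5a the answer in these samples was a difference close to 0. The lowest, median and highest normalized counts were 833, 977 and 1072 in controls and 845, 931 and 1191 in BDS. The groups overlapped almost entirely, and 3 of 6 BDS samples lay above the control mean. The means were 955 ± 89 in controls and 955 ± 128 in BDS (SD, n = 6). The log2 fold change, BDS over control, was -0.00012 ± 0.10 (SE; edgeR quasi-likelihood test, adjusted p = 0.999). Its 95% interval of -0.22 to 0.22 corresponds to 0.86-fold to 1.16-fold, and changes smaller than these could not be told from 0 with these samples.

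Before scaling, Clec5a was lower in BDS by less than the spread between samples. The unscaled lowest, median and highest counts were 840, 922 and 1526 in controls and 531, 825.5 and 1270 in BDS (two-sided exact permutation test of the means, p = 0.23). The 2 lowest were BDS 25 at 531 and BDS 21 at 574, the samples with the lowest housekeeping factors. After scaling these were at 845 and 974, within the range of the controls. BDS 7 was the highest of all 12 at 1191, and without it the log2 fold change of Clec5a was -0.07 ± 0.09 (SE; edgeR quasi-likelihood test, adjusted p = 0.63).

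**Figure D2:**
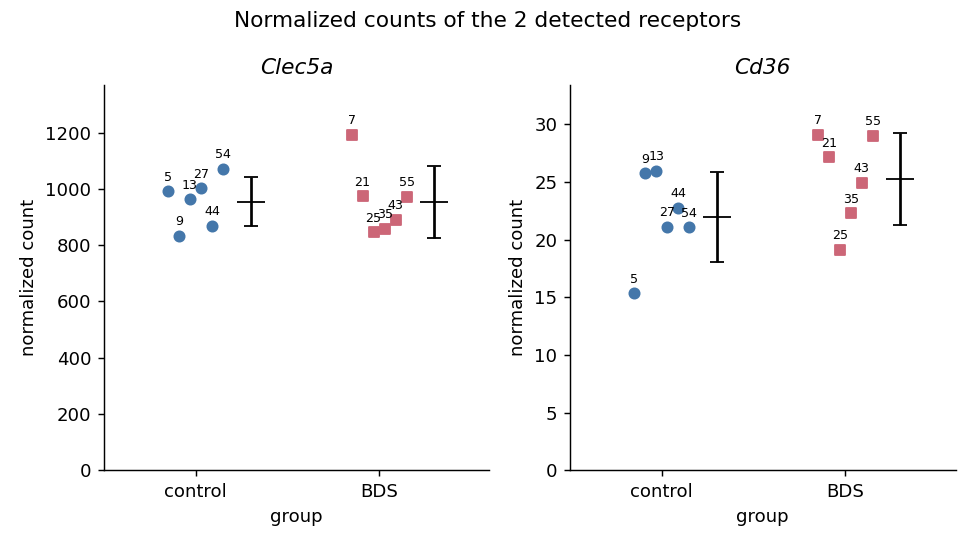
Normalized counts (axes from 0) of Clec5a and Cd36 in control (circles) and BDS (squares) samples, numbered as in the labels, with mean and SD of 6 samples as black bars. Clec5a had a mean of 955 in both groups, and the Cd36 groups overlapped between 19.1 and 25.96.

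Clec5a varied less between animals than most tested genes. Its coefficient of variation over the 12 samples was 11.0%, and 43 of 357 tested genes had a lower one, against a median of 18.9% over all tested genes. It was 9.28% within controls and 13.4% within BDS. Counting error alone would give 3.22% at its mean unscaled count, while these coefficients are of normalized counts. The median over all tested genes includes genes at low counts, where counting error is larger (20.6% for Cd36).

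Clec5a lay above the panel median under both scalings, but its 95% interval included that median each time. The interval was -0.22 to 0.22 against a median of -0.10 with housekeeping scaling. With TMM it was -0.09 to 0.27 against -0.01. Clec5a and the median moved together with the scaling, so the second comparison is not separate support. With TMM, which scales each sample to the tested genes, its log2 fold change was 0.09 ± 0.08 (SE; edgeR, adjusted p = 0.62). The authors' deposited table lists Clec5a at mean scores of 983 (control) and 993 (BDS), which it gives as 1.01-fold with p = 0.875.

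Cd36, a receptor for oxidised lipoproteins and long-chain fatty acids, was near the limit of detection. It had the lowest, median and highest normalized counts of 15.3, 21.9 and 25.96 in controls and 19.1, 26.03 and 29.1 in BDS. The groups overlapped, and 5 of 6 BDS samples lay above the control mean. The means were 22.0 ± 3.9 in controls and 25.3 ± 4.0 in BDS (SD, n = 6). The log2 fold change was 0.20 ± 0.17 (SE; 95% interval -0.16 to 0.56; edgeR quasi-likelihood test, adjusted p = 0.58), and the two-sided exact permutation test gave p = 0.18.

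Before scaling the order of the Cd36 means was the opposite, 24.5 ± 6.1 counts for controls and 22.7 ± 7.7 for BDS (SD, n = 6; two-sided exact permutation test, p = 0.69). The 3 samples in which Cd36 was not above background were control 5 at 13 counts, BDS 21 at 16 and BDS 25 at 12, with housekeeping factors of 0.847, 0.590 and 0.628. The mean of the negative controls came to 39.3% of the Cd36 count in controls and 44.8% in BDS. With that mean subtracted sample by sample before scaling, Cd36 was at 13.1 ± 4.0 in controls and 13.1 ± 5.0 in BDS (SD, n = 6). On the log2 scale the subtracted values differed by -0.03 (limma, 95% interval -0.77 to 0.71, adjusted p = 0.96). The coefficient of variation of the normalized Cd36 counts was 17.4%, and counting error alone would give 20.6% at the mean unscaled count. These 2 values are on unlike scales. The unscaled counts, with SDs of 6.1 on 24.5 and 7.7 on 22.7, varied more than 20.6%. The authors' deposited table lists Cd36 at 1.16-fold with p = 0.163. It gives Cd36 as above background in 92% of samples, more than the 9 of 12 found with the threshold used here. The reason for this difference was not examined.

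**Figure D3:**
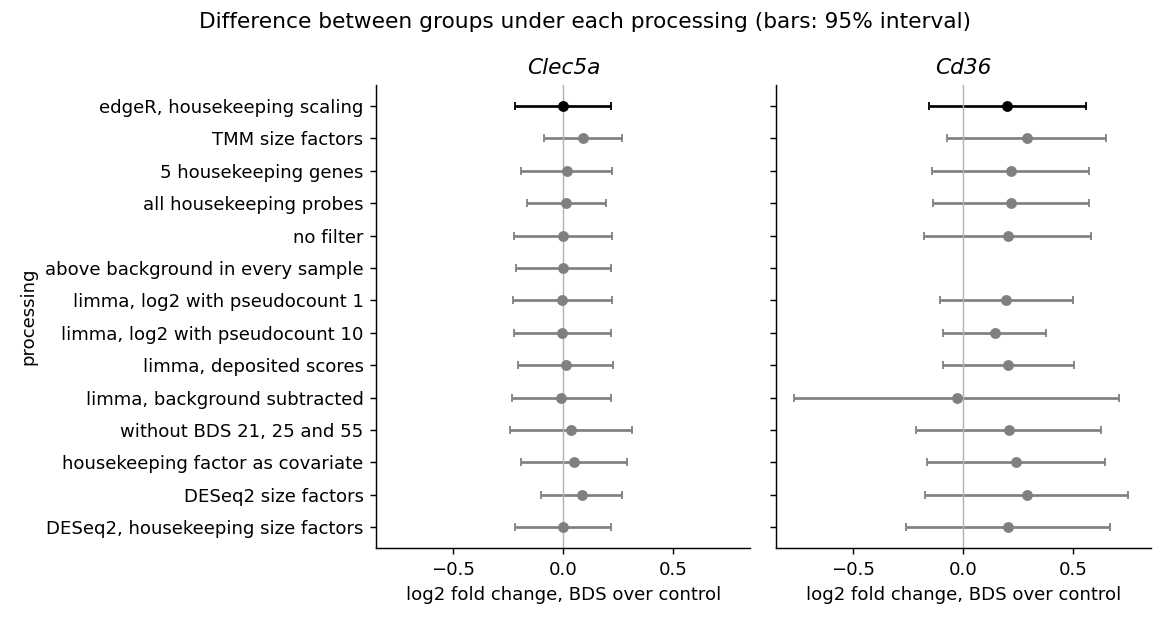
Log2 fold change, BDS over control, of Clec5a and Cd36 with its 95% interval under each processing (black, edgeR with housekeeping scaling; grey, the alternatives). Each interval crosses 0; Cd36 moves from 0.20 to -0.03 when background is subtracted, and has no value where genes had to be above background in every sample.

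The other scavenger receptors gave counts like those of probes without a target. Msr1, the class A receptor first known for taking up acetylated lipoprotein, was at 3 to 8 counts in controls and 4 to 11 in BDS. Marco, a receptor of tissue macrophages for bacteria and particles, was at 7 to 15 and 5 to 13 counts. Cd163 was at 7 to 15 and 5 to 10 counts. The mean of the negative controls of a sample was 8.25 to 10.4 counts in controls and 8.62 to 11.4 in BDS.

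Clec4e, which is induced in activated myeloid cells, was at 4 to 10 counts in controls and 5 to 12 in BDS. No sample exceeded its background threshold for any of these 4 genes. Expression below the threshold was not detectable, which is not the same as absence. Since both groups were at background, no fold is given.

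After scaling, Msr1 averaged 5.19 ± 2.56 normalized counts in control samples and 7.84 ± 2.84 after BDS (SD, n = 6; two-sided exact permutation test, p = 0.12). Clec4e was at 6.20 ± 2.33 and 9.09 ± 3.63 (SD, n = 6; same test, exact p = 0.14). Marco was at 9.55 ± 1.38 and 11.7 ± 4.7, and Cd163 at 10.03 ± 4.64 and 9.60 ± 4.15 (SD, n = 6; same test, exact p = 0.31 and p = 0.86). The negative controls, which have no target in the sample, moved from 8.88 ± 1.44 to 12.1 ± 3.4 by the same scaling (SD, n = 6), while their unscaled means were 9.62 ± 0.85 and 10.2 ± 1.0. The unscaled counts gave exact permutation p-values of 0.57 for Msr1, 0.54 for Clec4e, 0.62 for Marco and 0.18 for Cd163 (two-sided, n = 6 per group). These 12 permutation tests, scaled and unscaled for 6 genes, were not adjusted, and none had a p under 0.05.

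**Figure D4:**
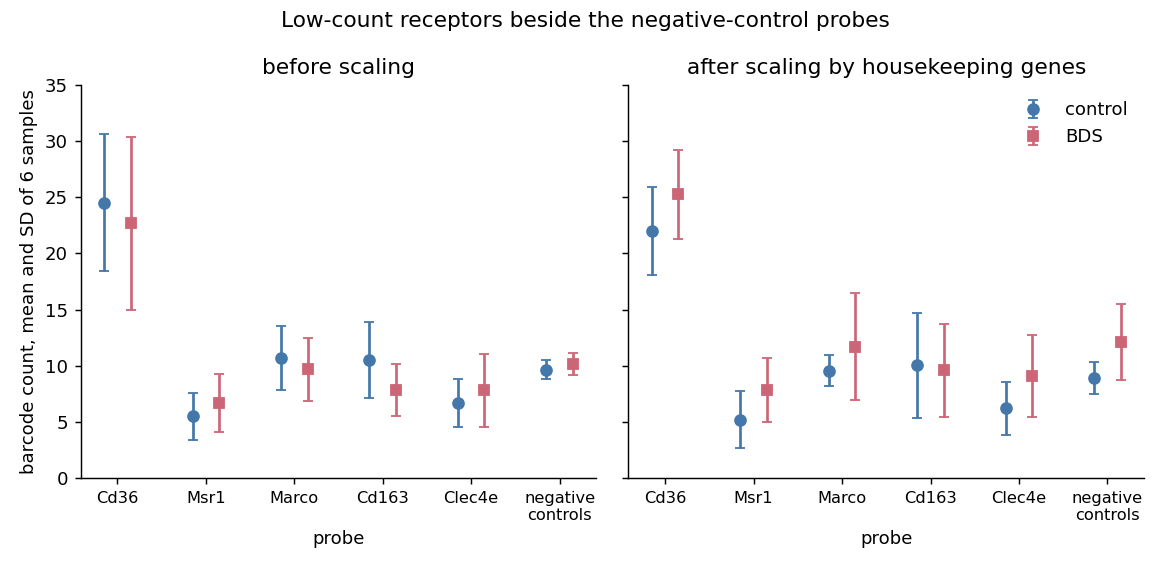
Mean and SD of 6 samples per group for the 5 low-count receptors and the negative-control probes, as barcode counts before scaling (left) and as normalized counts after it (right). The negative controls are at 9.62 and 10.2 before scaling and at 8.88 and 12.1 after it, in controls and BDS.

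No measured receptor passed the test. In the edgeR quasi-likelihood test, 0 of the 2 tested receptors passed an adjusted p of 0.05, on a panel where 0% of the 357 genes passed. At an unadjusted p under 0.05 there were 0 of the 2, against 12.3% of the panel (44 genes; the 41 lower in BDS made up 11.5% of the panel). DESeq2 called 0 of the 2 receptors with its own size factors, where 0% of the panel passed the adjusted threshold and 7.56% an unadjusted p of 0.05. With the housekeeping factors, where 1.68% and 12.9% of the panel passed, DESeq2 did not call Clec5a and gave no adjusted p for Cd36. Neither receptor had an unadjusted p under 0.05 in DESeq2. The median log2 fold change of the 2 tested receptors was 0.10, against -0.10 over all tested genes. With 2 genes this is a description only.

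The signalling partners of these lectins were expressed. Of the 23 genes listed for signalling through Tyrobp and Fcer1g, 13 were on the panel and all 13 were above background in enough samples to be tested. None passed the adjusted threshold (edgeR), 8 of 13 had log2 fold changes below 0 (236 of 357 on the panel), and their median was -0.07. Nfkb1, a transcription factor subunit at the end of the pathway, alone had an unadjusted p under 0.05. It averaged 3765 ± 191 normalized counts in control samples and 3162 ± 510 after BDS (SD, n = 6), a log2 fold change of -0.25 ± 0.10 (SE; edgeR, adjusted p = 0.34). Each of the 6 BDS samples lay under the mean of the controls. The log2 fold change of Nfkb1 was -0.16 with TMM and -0.08 without BDS 21, BDS 25 and BDS 55.

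Tyrobp, the adaptor of Clec5a, was at 3373 ± 137 and 3869 ± 722 normalized counts (SD, n = 6; log2 fold change 0.20 ± 0.11, SE; edgeR adjusted p = 0.43). Fcer1g, the adaptor of Clec4e, was at 2588 ± 182 and 2664 ± 382 (SD, n = 6; log2 fold change 0.04). Card9, which carries the signal from Syk to NF-kB, was at 3315 ± 294 and 3718 ± 724 (log2 fold change 0.17), and Syk at 5071 ± 434 and 4826 ± 542 (log2 fold change -0.07; SD, n = 6). These 4 were chosen for their role after values had been seen. None of these differences held its sign without BDS 21, BDS 25 and BDS 55, where Tyrobp was at -0.05, Fcer1g at -0.11, Card9 at -0.06 and Syk at 0.04 on the log2 scale. Of 25 alternatives, the sign was kept in 24 for Tyrobp, 23 for Card9 and 22 each for Fcer1g and Syk. The Tyrobp difference was 0.14 to 0.26 with 1 sample left out and 0.29 with TMM (edgeR, adjusted p = 0.52). The adaptor of Clec4e was thus well above background in the same samples in which the receptor itself was not.

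Other lectins were mostly undetected too. Of 18 further C-type lectin and lectin-like genes on the panel, 4 were tested and 11 were above background in no sample, among them Cd209g and Cd69. The 4 had a median log2 fold change of -0.05, with none at an unadjusted p under 0.05. Clec4a4, an inhibitory lectin of the same gene family as Clec4e, averaged 21.3 ± 7.9 normalized counts in control samples and 15.7 ± 9.0 after BDS (SD, n = 6), and was above background in 5 of 12 samples. Its log2 fold change was -0.41 ± 0.35 (SE; edgeR, adjusted p = 0.60), -0.81 without BDS 7, -0.23 at the other end of the range with 1 sample left out, and -1.88 with background subtracted (limma, adjusted p = 0.32). Klrc2, a lectin-like receptor of NK cells, was at 21.9 ± 5.3 and 19.8 ± 2.8 (SD, n = 6; log2 fold change -0.16, edgeR adjusted p = 0.68). Without control 27 the log2 fold change of Klrc2 was -0.0046, and with background subtracted -0.92 (limma, adjusted p = 0.42). Klrc2, like Clec4a4, was above background in 5 of 12 samples, the fewest that the filter admits. The split of these samples between groups was not examined for either gene. Both were near background (scaled negative controls 8.88 in controls and 12.1 in BDS), so the size of either difference is not exact. Of the sialic acid lectins and other galectins, Cd22 alone was on the panel, above background in 0 of 12 samples.

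Of 21 further scavenger receptors and relatives, 2 were on the panel and 1 was tested, Cd5, a T cell protein with scavenger receptor domains. It was at 35.5 ± 5.5 and 42.8 ± 14.0 normalized counts (SD, n = 6; log2 fold change 0.24, edgeR adjusted p = 0.60), and at -0.09 on the log2 scale without BDS 21, BDS 25 and BDS 55. A list of some Toll-like receptors, with co-receptors and adaptors, had 7 genes on the panel and 7 tested (Tlr1, Tlr2, Tlr4, Cd14, Ly96, Myd88 and Tirap), 4 with log2 fold changes below 0. Tlr3, Tlr5, Tlr8 and Tlr9 were tested on the panel but are not on that list. Tlr1 was at 1259 ± 162 and 979 ± 397 normalized counts (SD, n = 6; log2 fold change -0.36 ± 0.20, SE; edgeR adjusted p = 0.43). The difference of Tlr1 was -0.61 without BDS 7 (adjusted p = 0.047) and -0.04 without BDS 21, BDS 25 and BDS 55 (adjusted p = 0.98). Tirap, an adaptor, was at 549 ± 61 and 465 ± 98 (SD, n = 6; log2 fold change -0.24, edgeR adjusted p = 0.43; 0.00040 without BDS 21, BDS 25 and BDS 55).

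Among 7 tested transcription factors that govern macrophage receptor genes, 5 had log2 fold changes below 0 (236 of 357 on the panel) and none an unadjusted p under 0.05. Runx1 was at 3935 ± 136 and 3181 ± 819 normalized counts (SD, n = 6; log2 fold change -0.31, edgeR adjusted p = 0.38) and Stat3 at 688 ± 84 and 600 ± 102.4 (SD, n = 6; -0.20, adjusted p = 0.44). Without BDS 21, BDS 25 and BDS 55 these were at -0.03 and -0.08 on the log2 scale. Of 24 genes that accompany Clec7a and Lgals3 in activated phagocytes, 10 were on the panel and 9 were tested, with a median log2 fold change of -0.24. Of the 9, 5 had log2 fold changes below 0 (236 of 357 on the panel), and the range was -1.03 (Cybb) to 0.20 (Tyrobp). Cybb, a subunit of the phagocyte oxidase, had the only unadjusted p under 0.05 among them. It was at 25.8 ± 9.4 and 12.9 ± 5.5 normalized counts (SD, n = 6; log2 fold change -1.03 ± 0.29, SE; edgeR adjusted p = 0.17). Cybb was above background in 5 of 12 samples, the fewest that the filter admits. The split of these samples between groups was not examined, so the place of Cybb in the test may rest on a single group. The BDS mean of Cybb was close to that of the scaled negative controls (12.1), so the size of the difference is not exact. It was -0.64 with a pseudocount of 10 and -3.00 with background subtracted (limma).

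The genes whose pattern was most like that of Clec5a over the 12 samples were Psmb7, a proteasome subunit (Pearson r = 0.85, Spearman rho = 0.89), and Casp2, a caspase (r = 0.84, rho = 0.84). Without the 2 samples farthest from the median of Clec5a, r was 0.79 for both. Within the groups, r for Psmb7 was 0.77 in controls and 0.94 in BDS, and for Casp2 0.95 and 0.89. For Cd36 the nearest were Fcgr3, a low-affinity Fc receptor (r = 0.70, rho = 0.73), and Il23a, a cytokine subunit (r = 0.63, rho = 0.61; r = 0.50 without the 2 farthest samples, and 0.72 for Fcgr3). These were picked as the highest of 356 genes in log2(normalized count + 1) and carry no test. All values of a sample share 1 library and 1 scaling factor.

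The label of the sort was checked against markers. The 6 microglial identity genes on the panel were all tested, at a summed 146800 to 160200 normalized counts in controls and 142000 to 191800 in BDS. Their log2 fold changes ran from -0.31 (Runx1) to 0.20 (Csf1r), with 5 of 6 below 0. Ptprc alone had an unadjusted p under 0.05, at -0.28 (edgeR adjusted p = 0.27; 0.047 without BDS 7, and 0.96 at -0.13 without BDS 21, BDS 25 and BDS 55). Of 9 markers of monocytes and border macrophages on the panel, 5 were tested. Cd163, Marco and Msr1, the receptors described above, are on that list and were above background in no sample. The summed level of the list was 1076 to 1289 in controls and 1033 to 1175 in BDS. Ccr2, a monocyte receptor, was at 389 ± 79 and 301 ± 75 (SD, n = 6; log2 fold change -0.36, edgeR adjusted p = 0.38; -0.16 without BDS 21, BDS 25 and BDS 55). The 5 tested genes had a median of -0.05, with 3 of 5 below 0.

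Markers of other cell types were partly detected. Of 21 T and NK cell markers 9 were tested, with Cd3d and Cd3e above background in no sample, summed at 840 to 1196 and 816 to 1008 normalized counts. Their median log2 fold change was -0.06, with 5 of 9 below 0. Lck, the only one at an unadjusted p under 0.05, was at 35.45 ± 6.7 and 24.5 ± 4.6 normalized counts (SD, n = 6). Its log2 fold change was -0.53 (edgeR adjusted p = 0.25). The size depended on the handling of low counts, at -0.39 with a pseudocount of 10 and -1.15 with background subtracted (limma). Lck was above background in 11 of 12 samples. Of 9 B cell markers 3 were tested, none at an unadjusted p under 0.05. The B cell list summed to 3248 to 3654 in controls and 3181 to 4540 in BDS, mostly Blnk (means 3178 and 3574). Endothelial cells also express Cd36. Of 5 endothelial markers 3 were tested, summed at 1009 to 1422 and 989 to 1360. Most of that sum was Pecam1, with means of 1046 in controls and 942 in BDS. The 3 tested genes had a median log2 fold change of -0.15, with 2 of 3 below 0. Cdh5, an endothelial cadherin, was the only one at an unadjusted p under 0.05. Its log2 fold change was -0.32 (edgeR adjusted p = 0.38; -0.16 without BDS 21, BDS 25 and BDS 55). The part of these cells in the Cd36 count was not tested. The dendritic cell, neutrophil and neural lists had 2 tested genes each, none at an unadjusted p under 0.05. The neutrophil list summed to 3230 to 3847 in controls and 3185 to 3809 in BDS, mostly Csf3r (means 3401 and 3423).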

How the data were processed

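Per the labels, microglial RNA was amplified and hybridized to the immune panel. The authors deposited raw barcode counts per probe, used here, and normalized values scaled to positive controls and housekeeping genes, which are rounded and were treated as scores. Per the file headers, the second table also gives the percent of samples above background, a fold (ratio) and an unadjusted p-value. For the software of the barcode reader nothing was stated. Although 5 housekeeping genes are announced in the design text, 6 are named, and all 6 were used.

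Counts were divided by the housekeeping factor, filtered (presence in at least 40% of samples, by the background threshold of 2 SD) and tested with edgeR 4.0.16 (R 4.3.3, quasi-likelihood, no covariates, Benjamini-Hochberg over all tested genes, threshold 0.05). Alternatives used TMM, other housekeeping sets, DESeq2 1.42.0, limma 3.58.1, other filters, background subtraction, a covariate and left-out samples. The edgeR step was also run on simulated counts, with planted changes larger than the differences of Clec5a and Cd36. That run therefore does not bear on differences of their size. No replicate number was shared between groups.

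Members and lists were chosen with earlier results of these data known. Named genes are the members, genes of each list with an unadjusted p under 0.05 (at most 4) or else the 2 of smallest p, and the 2 nearest genes per tested member. For lists of cell type markers, genes with larger p were left unnamed, a choice made after values were seen. Gene names are those of the files. Some listed genes are not reported here.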

Additional observations from a re-analysis of the deposited data

Results flagged for a closer look

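In a group of 6 samples, 1 sample standing far from the other 5 is expected in about 1 of 20 groups by chance, and 5 of 54 groups showed it. BDS 7 was high in Clec5a, at 1191 normalized counts against 974 in the next sample and 845 in the lowest of the group. The same sample was high in Tlr1 (1749, next 970) and Ccr2 (445, next 301). Control 27 was high in Klrc2 (32.5, next 21.2) and control 54 in Cdh5 (195, next 150).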

How the results depend on the processing

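Under all 25 alternatives, 0 measured receptors were called, and 2 of 6 stayed above background with a threshold of mean plus 3 SD or of the highest negative control. For the whole panel the count of genes past the adjusted threshold was 0, except 6 in DESeq2 with housekeeping factors (an alternative chosen after seeing the data) and 4 without BDS 7; it was 0 to 4 with single samples left out. The 44 genes at an unadjusted p under 0.05 became 96 without BDS 7, 26 without BDS 25, 26 without BDS 55, 20 without BDS 21, BDS 25 and BDS 55, 22 with the covariate and 27 in DESeq2 with its own factors.

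The log2 fold change of Clec5a lay at 0, so its sign carried no information. It was 0.089 with TMM, 0.015 with 5 housekeeping genes, 0.014 with all housekeeping probes, 0.011 with the deposited scores, 0.036 without BDS 21, BDS 25 and BDS 55, 0.047 with the housekeeping factor as covariate, 0.083 in DESeq2 and 2.1e-05 in DESeq2 with housekeeping factors. With 1 sample left out it was -0.074 to 0.036. Cd36 was -0.031 with background subtracted, and 0.13 to 0.26 with 1 sample left out.

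Without BDS 21, BDS 25 and BDS 55, Card9 was at -0.060, Cd5 at -0.092, Fcer1g at -0.11, Il23a at -0.049, Syk at 0.044, Tirap at 0.00040 and Tyrobp at -0.055. With the covariate, Card9 was at -0.013, Fcer1g at -0.027 and Il23a at -0.049. Il23a was at -0.12 with background subtracted and -0.029 to 0.17 with 1 sample left out, Fcer1g at -0.0036 (without BDS 21) to 0.093, and Syk at 0.027 with TMM and 0.021 in DESeq2. The cause of these changes was not tested. In the sample of highest total, control 54, Msr1, Cd163, Clec4e and Marco were at 7, 7, 7 and 15 counts, under a threshold of 18.7, and Cd36 was at 30. No paired analysis was possible because the groups share no replicate numbers.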
